A study of Homo sapiens with 32 samples.

Results

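The start sites of chromosomes 2 and 9 were described in 2 human prostate cancer cell lines, BicR and LNCaP, by cap analysis of gene expression (CAGE). This method reads the 5′ ends of capped RNAs and so counts the capped RNA that begins at each start site. LNCaP is an established androgen-responsive line. BicR is set beside it in the labels, which do not spell out its name or say how it was made. The members are the 1419 sites that the deposited table places on chromosome 2 (855 sites) or chromosome 9 (564 sites), 10.7% of its 13294 sites. These chromosomes were selected on the ratio of mean level in BicR to that in LNCaP over the untreated and ethanol libraries, which ran high along them, so that ratio is given here as a description, with no test, for the 6 libraries that chose them.

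Each line gave 9 libraries. Cells were kept in phenol-red-free medium with charcoal-treated serum, then received the androgen DHT at 10 nM, DHT together with the androgen receptor antagonist bicalutamide at 1 µM, bicalutamide alone, or the vehicle ethanol, each for 6 h and 24 h, or were taken before treatment at 0 h. These are the treatments given for each sample. The treatment protocol shared by all samples of the series names instead the androgen R1881 at 10 nM for 24 h, and the samples' own treatments were followed here. Every line, treatment and time had 1 library, and nothing in the labels says that libraries came from separate cultures. In tests between the lines, a p-value thus sets the line difference against its spread between conditions. In tests of DHT against ethanol, the 6 h and 24 h libraries of a treatment stand in for replicates, with a time term per line. Either spread may be technical.

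Gene dosage is one way in which neighbouring genes move together: an added copy of a chromosome or arm adds the same DNA to every gene on it, and their transcripts tend to rise by one small factor. Promoter regulation acts instead on single start sites or small clusters. DNA copy number was not measured in these files, and a change of dosage cannot be told apart here from another change shared along a chromosome. The files pair no site with a gene, so sites are given by hg19 chromosome, position and strand, and the labelled cell type could not be checked against marker genes.

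The libraries held 4139807 to 7753336 tags in the table. The 6 h library of BicR under DHT with bicalutamide was the shallowest and stood apart from the other BicR libraries in several values below, so counts that rest on it are also given without its pair. The table held 75.6% of all tags, by the deposited RPM values (tags scaled to library size), in the BicR library of bicalutamide at 6 h and 78.6% in that of ethanol at 6 h, against 83.0% to 86.1% in the other 16 libraries. In those 2 pairs the median log2 ratio over all sites was −0.24 and −0.14, and values per condition are therefore set against the sites of other chromosomes in the same pair.

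In the untreated and ethanol libraries, the median site was 1.18-fold higher in BicR than in LNCaP on chromosome 2 (log2 ratio 0.24 of mean RPM, 0.5 RPM added to both) and 1.16-fold higher on chromosome 9 (log2 0.22). The median over all sites of the table was −0.02. The other 21 chromosomes had medians between −0.34, on chromosome 15, and 0.06, on chromosome 18, so chromosomes 2 and 9 held ranks 1 and 2 of 23. On chromosome 2, 79.6% of sites lay above the median of the table, and on chromosome 9, 77.5%, against 46.6% of sites on other chromosomes. The interquartile range of the sites was 0.45 log2 units on chromosome 2 and 0.44 on chromosome 9, against 0.38 to 0.50 on the others: the whole distribution lay higher and was not wider. In the 12 libraries that the choice did not use, those of DHT, bicalutamide or both, the medians were 0.23 on chromosome 2 and 0.29 on chromosome 9, with −0.26 to 0.06 on the others.

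**Figure D1:**
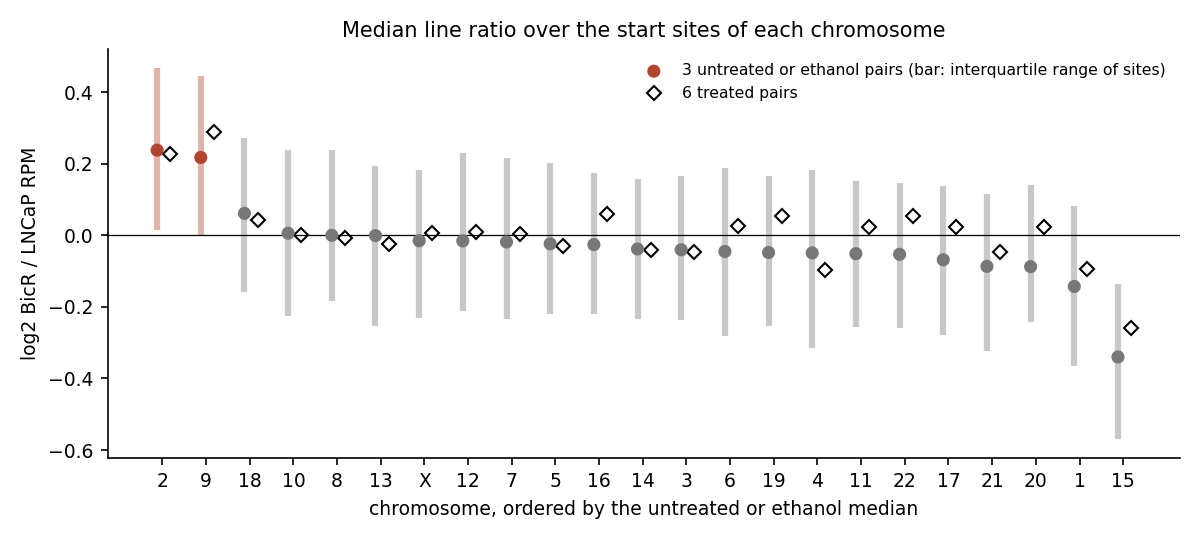
Median log2 ratio of BicR over LNCaP RPM (y axis) over the start sites of each chromosome (x axis). Filled points are the 3 untreated or ethanol pairs, with bars over the interquartile range of the sites, and open diamonds are the 6 treated pairs. Chromosomes 2 and 9 stood at 0.24 and 0.22, above chromosome 18 at 0.06.

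The shift was present in all 4 arms. In the untreated and ethanol libraries, arm 2p (347 sites) had a median of 0.24, arm 2q (508 sites) 0.23, arm 9p (138 sites) 0.22 and arm 9q (426 sites) 0.21. Set against other chromosomes in each of the 3 pairs, arm 2p lay 0.29 ± 0.02 log2 units higher, arm 2q 0.28 ± 0.06, arm 9p 0.27 ± 0.01 and arm 9q 0.27 ± 0.02 (SD, n = 3 pairs). These pairs are the ones that chose the chromosomes. In the treated libraries, which did not, the medians were 0.25 on 2p, 0.21 on 2q, 0.25 on 9p and 0.29 on 9q, and the difference between arms was not tested. Both strands carried it: on chromosome 2 the median was 0.23 for plus-strand sites and 0.24 for minus-strand sites, and on chromosome 9 it was 0.19 and 0.24.

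The shift was present at every level. Sites were split in 3 equal parts by their mean RPM. On chromosome 2 the medians were 0.17 in the lowest part (0.69 to 14.3 RPM), 0.19 in the middle part and 0.28 in the highest (34.4 to 2219.5 RPM). On chromosome 9 they were 0.15, 0.23 and 0.25. The same parts of the other chromosomes had −0.06, −0.07 and −0.03. In the treated libraries all 3 parts of both chromosomes lay between 0.21 and 0.30.

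Along the chromosomes, 24 of 25 windows of 10 Mb on chromosome 2 and 12 of 12 on chromosome 9 had a median above that of the table, counting windows with at least 5 sites. In the treated libraries the counts were again 24 of 25 and 12 of 12. On the other chromosomes 116 of 259 windows (44.8%) did so in the untreated and ethanol libraries and 99 (38.2%) in the treated ones. The windows of chromosome 9 stayed within a narrow band: the lowest, at 90 to 100 Mb (46 sites), had a median of 0.12 and the highest, at 70 to 80 Mb (29 sites), 0.34. Their SD was 0.074 log2 units, inside the range of 0.040 to 0.15 on other chromosomes.

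Chromosome 2 was less even. Its highest window, at 50 to 60 Mb (21 sites), had a median of 0.52, and in treated libraries 0.39. The neighbouring window at 60 to 70 Mb (44 sites) had 0.17, and that at 70 to 80 Mb (60 sites) had 0.39. The lowest window, at 180 to 190 Mb (25 sites), had −0.30, and in treated libraries −0.50. Among the windows with at least 5 sites it was the only one of either chromosome below the median of the table. Against the median of all sites it stood at −0.38 and −0.42 in the ethanol pairs at 6 h and 24 h, at −0.72 to −0.22 in the 6 treated pairs, and at 0.11 in the pair taken before treatment, which thus went the other way. A window of 3 sites at 60 to 70 Mb of chromosome 9, too few to be counted, had −0.04, and −0.34 in treated libraries. Beside the low window of chromosome 2, the window at 170 to 180 Mb (54 sites) had 0.31 and that at 190 to 200 Mb (30 sites) 0.25. The window SD of chromosome 2 was 0.15, rank 22 of 23 from the most even chromosome.

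**Figure D2:**
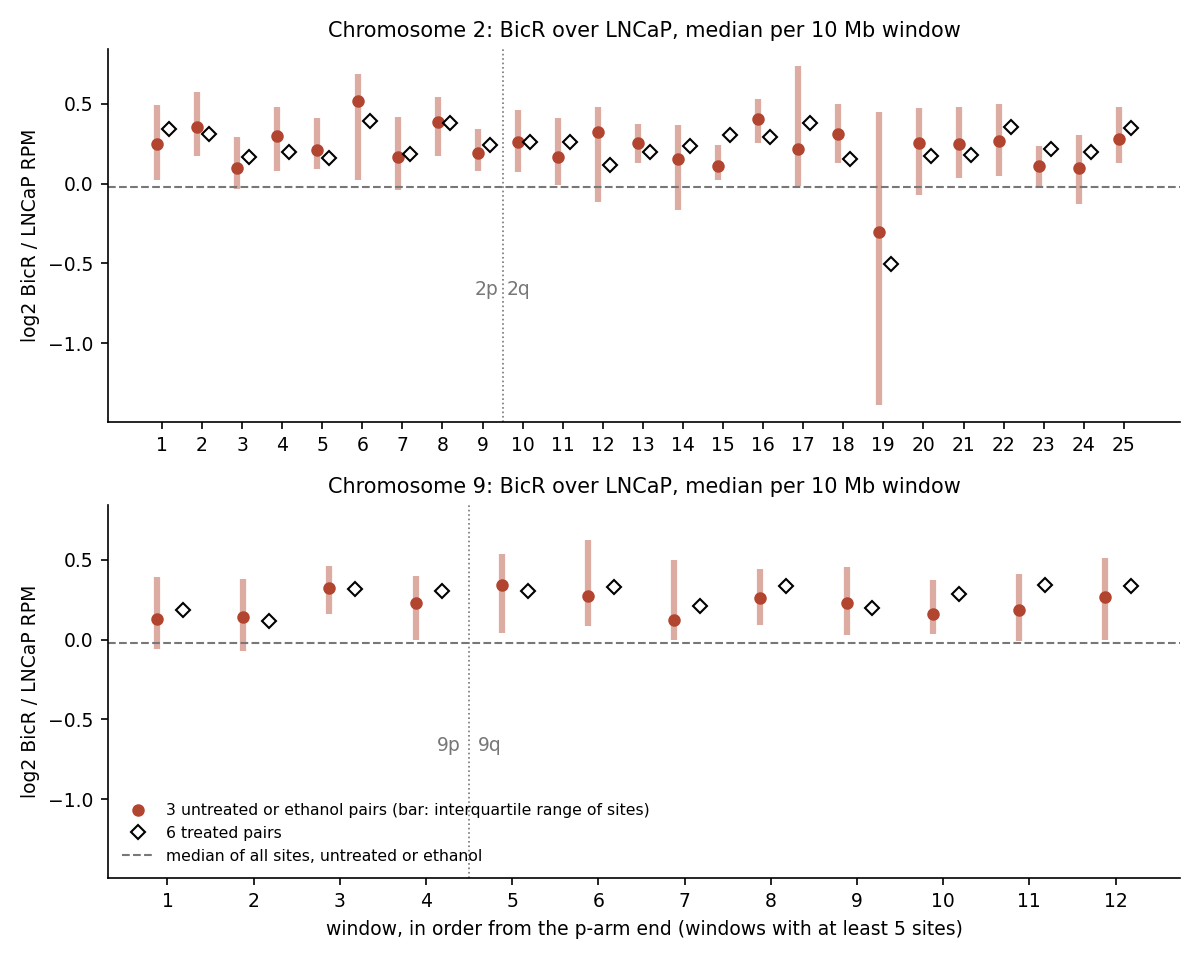
Median log2 ratio of BicR over LNCaP RPM (y axis) per 10 Mb window (x axis, numbered from the p-arm end), chromosome 2 above and chromosome 9 below. Filled points with bars over the interquartile range of the sites are the 3 untreated or ethanol pairs, open diamonds the 6 treated pairs, and the dotted line is the window border nearest the centromere. Of the windows drawn, number 19 of chromosome 2 was the one below the median of all sites.

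Single condition pairs showed the same pattern except one. In 8 of the 9 pairs, 23 to 25 of the 25 windows of chromosome 2 and all 12 of chromosome 9 lay above that pair's median of all sites. In the pair of DHT with bicalutamide at 6 h, 18 of 25 and 10 of 12 did. Against other chromosomes, the medians of that pair were 0.03 for arm 2q, 0.16 for 2p, 0.07 for 9p and 0.31 for 9q. Its shift was thus small on 2q and 9p and as large as elsewhere on 9q.

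The level of each arm was also taken per library, as the median over its sites of log2(RPM + 0.5) less the site's mean over the 18 libraries, set against the sites of other chromosomes. For chromosome 2 the 9 BicR libraries had values from −0.04 to 0.21 with a median of 0.15, against −0.21 to −0.08 with a median of −0.12 in the 9 LNCaP libraries. For chromosome 9 they had 0.05 to 0.19 with a median of 0.15 in BicR, against −0.19 to −0.10 with a median of −0.14 in LNCaP. The lines did not overlap on either chromosome, but 6 of these libraries are those that chose the chromosomes. Over the 12 treated libraries alone, chromosome 2 had −0.05 to 0.20 with a median of 0.15 in BicR, against −0.14 to −0.09 with a median of −0.12 in LNCaP. Chromosome 9 had 0.06 to 0.19 with a median of 0.15 in BicR, against −0.18 to −0.12 with a median of −0.14 in LNCaP. Again neither overlapped. Of the other 21 chromosomes, 3 (12, 16 and 22) were higher in BicR without overlap in these libraries, and 2 (1 and 15) were lower. The largest positive difference of means among them was 0.10, on chromosome 22, against 0.24 on chromosome 2 and 0.28 on chromosome 9.

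By arm, 2p, 9p and 9q did not overlap between the lines, and 2q did, over the 18 libraries and over the 12 treated ones alike. The 6 h library of BicR under DHT with bicalutamide had −0.07 on arm 2q, where the other 8 BicR libraries had 0.10 to 0.20, against −0.22 to −0.06 in LNCaP. On arm 9p it had −0.07, where LNCaP reached −0.08. On arm 9q it had 0.10 beside 0.13 to 0.17 in the other BicR libraries. As a share of all tags in the table, chromosome 2 took 5.27% to 6.36% in BicR against 4.80% to 5.08% in LNCaP, and chromosome 9 took 3.68% to 4.06% against 3.13% to 3.35%.

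**Figure D3:**
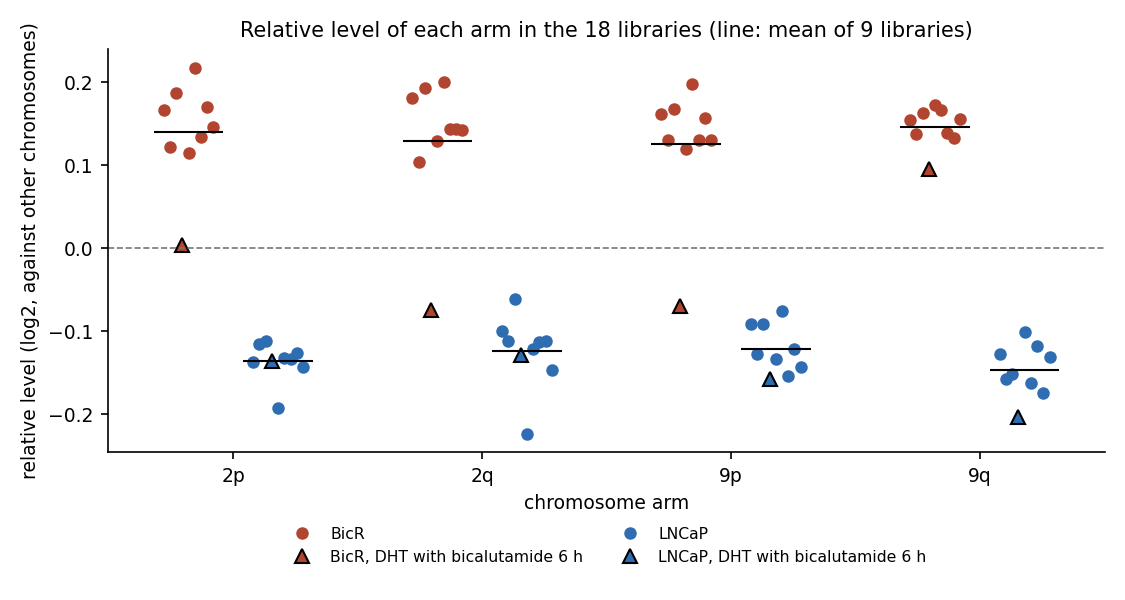
Relative level of each chromosome arm (x axis) in every library, on the log2 scale against the sites of other chromosomes (y axis), 9 BicR libraries left and 9 LNCaP libraries right with their means as lines. Triangles are the libraries of DHT with bicalutamide at 6 h, where BicR fell to −0.07 on 2q and on 9p.

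Site by site, the line difference was tested in the 12 treated libraries, with edgeR's quasi-likelihood test and adjustment over all 13050 sites that passed the filter on low counts. Of the members, 1389 passed it, and 16 on chromosome 2 and 14 on chromosome 9 did not. On chromosome 2, 343 of 839 tested sites were higher in BicR and 62 lower at an adjusted p under 0.05. On chromosome 9, 266 of 550 were higher and 27 lower. Over all chromosomes 19.3% of tested sites were higher and 17.8% lower, while the share of higher sites was 40.9% on chromosome 2 and 48.4% on chromosome 9. On the other chromosomes that share ran from 4.81% on chromosome 15 to 22.1% on chromosome 22. The median fitted log2 difference was 0.23 on chromosome 2 and 0.28 on chromosome 9, against 0.01 over all sites. Without the pair of DHT with bicalutamide at 6 h, 384 were higher and 65 lower on chromosome 2, and 281 higher and 37 lower on chromosome 9.

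By arm, 149 of 342 tested sites of 2p were higher and 17 lower, and 194 of 497 of 2q were higher and 45 lower. On 9p, 59 of 136 were higher and 6 lower, and on 9q, 207 of 414 were higher and 21 lower. Direction held across conditions for many of them: 282 sites of chromosome 2 (33.0%) and 229 of chromosome 9 (40.6%) lay above the median of all sites in each of the 6 treated pairs, against 14.1% on other chromosomes. Below that median in all 6 pairs were 54 sites (6.32%) and 29 sites (5.14%), against 17.5% elsewhere.

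To find sites that did not follow their chromosome, the same 12 libraries were tested against the chromosome's own median ratio, taken from the other 6 libraries. On chromosome 2, 136 sites lay above the shift and 152 below it, and on chromosome 9, 124 above and 80 below (edgeR, adjusted p under 0.05). The median departure was −0.01 on chromosome 2, 0.06 on chromosome 9 (325 of 550 sites positive) and 0.04 over all tested sites. The reference thus lay somewhat low for chromosome 9 as a whole. With the shift taken less the median of all sites, an unplanned alternative, 122 lay above and 163 below on chromosome 2, and 108 and 86 on chromosome 9. Over all tested sites 20.6% lay above the shift of their chromosome and 15.2% below. In either direction 34.3% of chromosome 2 and 37.1% of chromosome 9 departed, inside the range of 29.9% to 41.9% on the other chromosomes. The median called departure was 0.47 above and −0.46 below on chromosome 2, and 0.39 above and −0.48 below on chromosome 9. When a departure of more than 0.5 log2 units was itself tested, 19 sites lay above and 28 below on chromosome 2, and 11 above and 14 below on chromosome 9. The share of all sites called by that test was not counted. Without the pair of DHT with bicalutamide at 6 h the counts above and below were 175 and 155 on chromosome 2 and 139 and 94 on chromosome 9. On chromosome 9, 76 lay above without the 24 h pair of that treatment and 53 below without the 6 h pair of bicalutamide.

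The low window of chromosome 2 held such sites side by side. Of its 25 sites, the 16 up to position 187454782 had a median ratio of 0.34 in the untreated and ethanol libraries, and the last 9, from position 187868001 on, had −1.41 with all 9 below 0. In the treated libraries these medians were 0.24 and −1.77, again with all 9 below 0. This split of the window was chosen after its values were seen, and the medians are a description.

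Within those 9 sites the difference was steepest around a few neighbouring start sites. The minus-strand site at 188419161 had 61.0 to 198.7 RPM in the 6 treated BicR libraries, median 63.8, against 312.4 to 392.2 RPM in LNCaP, median 351.8. The groups did not overlap, and the site was 4.53-fold lower in BicR (log2 −2.18 ± 0.19 SE, edgeR adjusted p = 5.78e-05). Its highest BicR value was in the library of DHT with bicalutamide at 6 h. A closely spaced pair of sites on opposite strands stood beside it. The minus-strand site at 188461618 had 5.23 to 25.7 RPM, median 7.46, in BicR against 50.2 to 70.6 RPM, median 61.9, in LNCaP (log2 −2.70 ± 0.25 SE, adjusted p = 6.73e-05). The plus-strand site at 188462036 had 3.19 to 11.4 RPM, median 4.75, in BicR against 20.7 to 36.1 RPM, median 26.9, in LNCaP (log2 −2.36 ± 0.20 SE, adjusted p = 5.01e-05). Neither overlapped between the lines.

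Further along, 4 sites within 2160 bases were all lower in BicR. The strongest, on the plus strand at 189157503, had 57.0 to 123.3 RPM in BicR, median 98.3, against 274.4 to 387.8 RPM in LNCaP, median 295.1 (log2 −1.80 ± 0.14 SE, adjusted p = 3.52e-05). Before these stretches, 4 sites from 181557226 to 181848761 were also lower, the farthest of them, on the plus strand at 181848761, with 2.91 to 9.82 RPM in BicR, median 3.54, against 17.6 to 27.6 RPM in LNCaP, median 22.3 (log2 −2.31 ± 0.16 SE, adjusted p = 2.73e-05). Not all sites of the window were low. The plus-strand site at 183989170 had 17.4 to 25.7 RPM in BicR, median 20.6, against 10.6 to 16.2 RPM in LNCaP, median 12.9, with no overlap (log2 0.75 ± 0.13 SE, adjusted p = 0.0015).

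**Figure D4:**
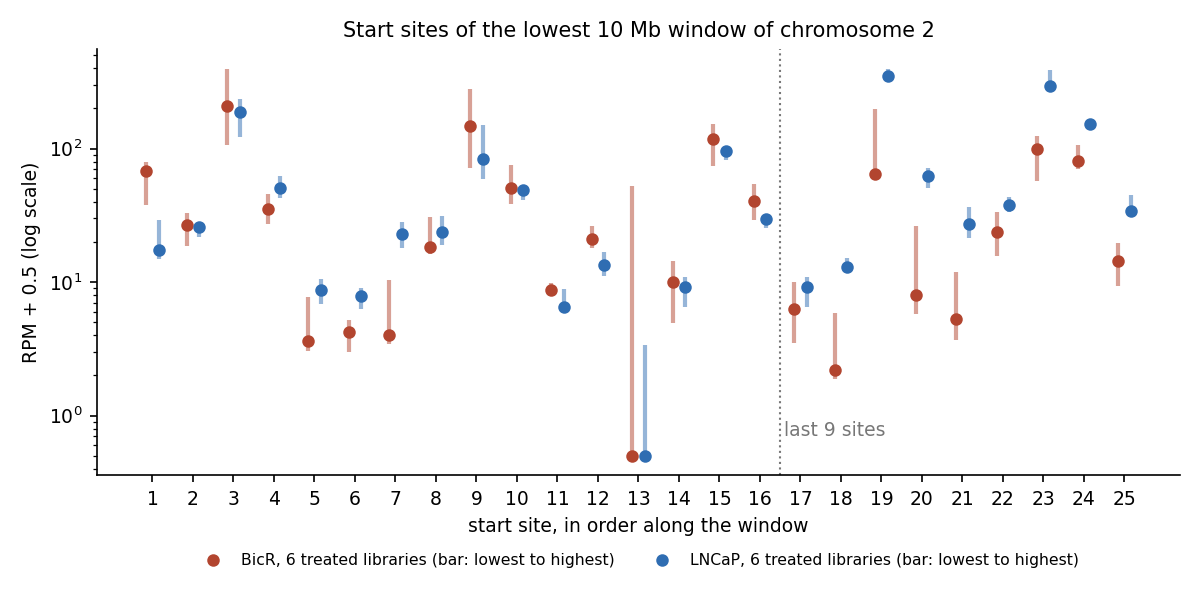
RPM + 0.5 on a log scale (y axis) at the 25 start sites of the window at 180 to 190 Mb of chromosome 2, in order (x axis), with BicR left and LNCaP right of each tick. Points are medians and bars the lowest to highest of 6 treated libraries, and the median of each of the last 9 sites was lower in BicR.

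Such stretches were counted as runs of at least 3 neighbouring sites within 1 Mb that departed the same way. Chromosome 2 had 4 runs above (16 sites) and 8 below (30 sites), and chromosome 9 had 5 above (16 sites) and 4 below (14 sites). Runs are given for these chromosomes only. Over all tested sites 20.6% were called above and 15.2% below, so whether runs are more frequent here than elsewhere was not tested. The 5 sites from 187868001 to 188462036 formed the strongest run by its median, at −2.60 log2 units from the chromosome shift, followed by 5 sites of chromosome 9 from 107509896 to 108210314 at −1.45, then by the 4 sites at 189156395 to 189158555 at −1.35 and the 4 at 181557226 to 181848761 at −1.33. Runs above were shallower: the strongest medians were 0.49, in 4 sites of chromosome 2 from 74756824 to 75185769 and in 3 sites from 119981409 to 120124566, and 0.42 in 3 sites of chromosome 9 from 88897489 to 89626488. Members of a run can share a gene or a pair of opposed start sites and are not independent.

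Single sites were named among those that averaged 10 RPM or more in the treated libraries, with one direction in all 6 treated conditions and in the untreated and ethanol mean. On chromosome 2 these were 62 sites above and 95 below the shift, and on chromosome 9, 62 above and 46 below. Sites within these limits were not counted on other chromosomes, so the counts do not set the members apart. The named sites were chosen from the same treated libraries, so a lack of overlap between the lines at them follows largely from the choice. Some called sites left out by these limits departed farther: on chromosome 2 the minus-strand site at 179770153 lay 3.90 log2 units above (mean 6.46 RPM) and the plus-strand site at 234602310 lay at −4.79 (mean 4.04 RPM), and on chromosome 9 the minus-strand site at 107651894 lay at −4.24 (mean 4.19 RPM). Farthest above among the named sites of chromosome 2, the plus-strand site at 11679944 had 12.3 to 47.2 RPM in treated BicR libraries, median 26.6, against 0.97 to 6.84 RPM in LNCaP, median 3.76. It did not overlap and was 7.97-fold higher (log2 2.99 ± 0.27 SE, edgeR adjusted p = 5.98e-05). The plus-strand site at 234862316 had 10.02 to 35.0 RPM in BicR, median 21.2, against 0.55 to 7.55 RPM in LNCaP, median 4.24 (log2 2.72 ± 0.39 SE, adjusted p = 0.000527). Both were low in every untreated and ethanol library of either line, at 1.20 to 2.47 RPM in BicR and 0.30 to 1.01 RPM in LNCaP. At a far higher level, the plus-strand site at 223725753 had 413.9 to 1299.7 RPM in BicR, median 729.3, against 167.2 to 267.4 RPM in LNCaP, median 197.0 (log2 1.84 ± 0.16 SE, adjusted p = 5.65e-05). The minus-strand site at 208634629 was 3.31-fold higher, with 12.2 to 37.0 RPM in BicR against 3.39 to 8.69 RPM in LNCaP.

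Within the same limits, the site farthest below on chromosome 2 lay outside the low window, on the plus strand at 228678557. It had 16.1 to 79.1 RPM in treated BicR libraries, median 34.1, against 180.6 to 350.1 RPM in LNCaP, median 241.1. The lines did not overlap, and the site was 6.67-fold lower in BicR (log2 −2.74 ± 0.28 SE, adjusted p = 0.000117). The next 3 below were the sites at 188461618, 188462036 and 181848761 described above.

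On chromosome 9 the 4 named sites above the shift departed less than those of chromosome 2. The minus-strand sites at 112970438 and 112969821, both on one short stretch of the same strand, were 3.07-fold and 2.51-fold higher. The first had 17.6 to 34.6 RPM in BicR, median 25.1, against 6.92 to 9.64 RPM in LNCaP, median 8.10 (log2 1.62 ± 0.14 SE, adjusted p = 5.87e-05). The second had 49.9 to 92.2 RPM in BicR, median 65.5, against 23.9 to 34.4 RPM in LNCaP, median 25.8. Another minus-strand site, at 137764481, was 2.73-fold higher, with 25.3 to 75.1 RPM in BicR, median 61.7, against 13.3 to 24.9 RPM in LNCaP, median 21.2 (log2 1.45 ± 0.10 SE, adjusted p = 2.31e-05). At 139981111, also on the minus strand, the site was 2.28-fold higher, with 20.2 to 44.3 RPM in BicR against 11.7 to 17.2 RPM in LNCaP. None of the 4 overlapped between the lines.

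The largest departure of the named sites was below the shift, on the plus strand of chromosome 9 at 130911731. It had 60.4 to 501.2 RPM in treated BicR libraries, median 88.2, against 795.8 to 1261.0 RPM in LNCaP, median 959.1. The site was 8.66-fold lower in BicR (log2 −3.11 ± 0.34 SE, adjusted p = 0.000143), and its value of 501.2 RPM came from the library of DHT with bicalutamide at 6 h. The plus-strand sites at 107510017 and 108006931, both in the run named above, were 2.54-fold and 1.88-fold lower in the treated libraries (log2 −1.34 and −0.91). In the untreated and ethanol libraries their log2 ratios were smaller, at −0.40 and −0.29. The first had 54.1 to 142.1 RPM in BicR, median 103.4, against 160.8 to 290.0 RPM in LNCaP, median 232.1. The second had 46.5 to 106.7 RPM in BicR against 86.9 to 182.3 RPM in LNCaP, and so overlapped. A minus-strand site at 117568318 was 2.67-fold lower at a low level, with 1.74 to 15.5 RPM in BicR against 10.8 to 27.0 RPM in LNCaP, also with overlap.

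**Figure D5:**
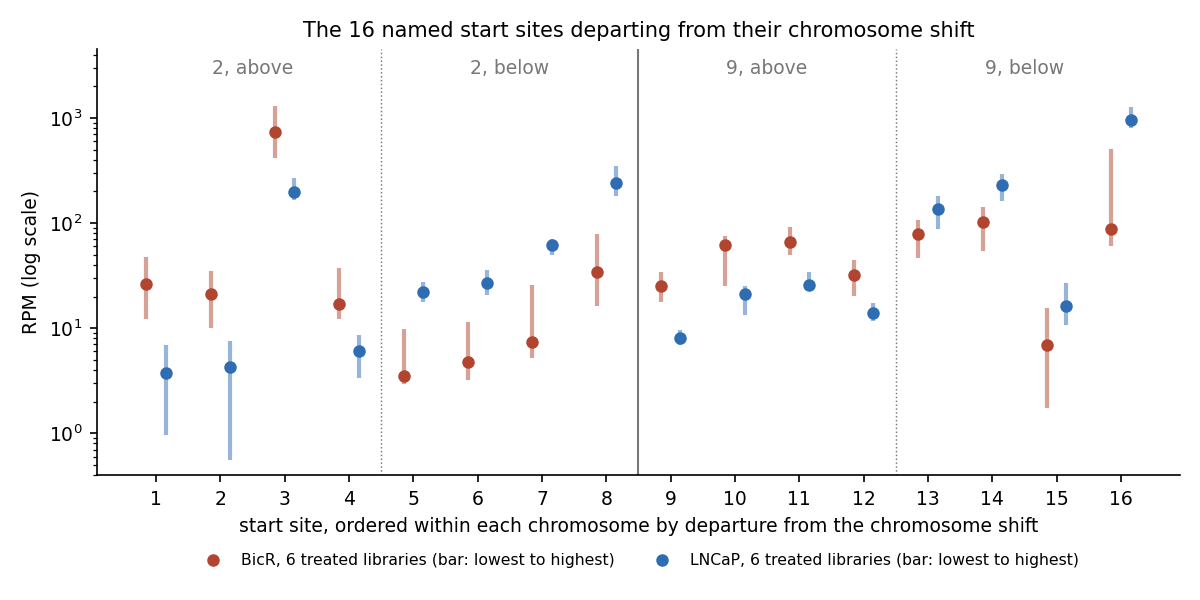
RPM on a log scale (y axis) of the 16 start sites that departed farthest from their chromosome shift among those with a mean of at least 10 RPM and one direction in all conditions (x axis), 8 on chromosome 2 and 8 on chromosome 9, with BicR left and LNCaP right of each tick. Points are medians and bars the lowest to highest of 6 treated libraries, and 14 of the 16 sites did not overlap between the lines. The sites were chosen from these same libraries, so this lack of overlap follows largely from the choice.

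In the untreated and ethanol libraries, 39 members were more than 2-fold higher in BicR and 24 more than 2-fold lower. Such sites made up 4.80% of chromosome 2 and 3.90% of chromosome 9, against 4.60% of all sites. Of all 13294 sites, 219 were higher and 392 lower by that much. The members among them were picked on the libraries that chose the chromosomes, and most kept their side in the treated libraries. Sites of other chromosomes were not followed in this way. The 39 had a median log2 ratio of 0.84 to 1.57 in 5 of the treated pairs and 0.54 in the pair of DHT with bicalutamide at 6 h. The 24 had −2.30 to −1.70 in the 5 pairs and −1.004 in that pair. Of the 39, 34 to 39 were higher in each pair, and of the 24, 20 to 24 were lower.

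The 3 most abundant sites of each chromosome differed in how far they followed it. The plus-strand site of chromosome 2 at 217363566 had 2007.7 to 2414.6 RPM in treated BicR libraries against 2094.7 to 2414.7 RPM in LNCaP (log2 0.03 ± 0.07 SE, adjusted p = 0.785). The plus-strand site at 38708919 had 1775.8 to 1925.1 RPM in BicR against 1823.1 to 2224.6 RPM in LNCaP (log2 −0.12 ± 0.07 SE, adjusted p = 0.166), and lay 0.36 log2 units below the chromosome shift (adjusted p = 0.00227). The minus-strand site at 198364563 was 1.26-fold higher (adjusted p = 0.025) and did not depart from the shift by the test. On chromosome 9 the minus-strand site at 127624235 had 2307.1 to 2746.2 RPM in BicR against 2035.5 to 2280.4 RPM in LNCaP, with no overlap, and was 1.16-fold higher (log2 0.21 ± 0.06 SE, adjusted p = 0.024). The plus-strand site at 140135738 was 1.99-fold higher, with 603.4 to 1423.6 RPM in BicR against 344.2 to 667.9 RPM in LNCaP. At 19380233 on the minus strand, the site had a log2 difference of 0.13 ± 0.07 SE (adjusted p = 0.146).

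Androgen response was a further readout of the same sites. Against ethanol, DHT in BicR raised 18 and lowered 12 of 850 tested sites on chromosome 2, and raised 5 and lowered 5 of 556 on chromosome 9 (edgeR, adjusted p under 0.05). Over all chromosomes 2.22% of sites rose and 1.18% fell, where the members had 2.12% and 1.41% on chromosome 2 and 0.899% in each direction on chromosome 9. In LNCaP 1 member rose and none fell by edgeR, where 0.121% of all sites rose and 0.00757% fell. With no adjustment, 65 of 1406 tested members had an edgeR p under 0.05 in LNCaP, against 736 of all 13214 tested sites. DESeq2 called 3 members higher and 0 lower, and its calls over all sites were not counted. The counts leaned on single libraries: in BicR the 12 lower sites of chromosome 2 became 1 without the 6 h DHT library and 3 without the 24 h one. On chromosome 9 the 5 higher and 5 lower sites became 2 and 3 without the 6 h DHT library, and 3 and 1 without the 24 h one. The difference of the response between the lines was not tested.

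Several sites that lay far above the shift responded to DHT in BicR, and these tests share the BicR DHT libraries with those of the line difference. The site at 11679944 had 47.2 RPM at 6 h and 33.0 RPM at 24 h with DHT in BicR, against 1.43 and 2.14 RPM with ethanol (log2 4.44, adjusted p = 0.000893). In LNCaP it had 6.84 and 5.57 RPM with DHT, against 0.30 and 1.01 RPM with ethanol (log2 3.18, adjusted p = 0.147). The site at 223725753 had 893.1 and 1299.7 RPM with DHT in BicR, against 229.6 and 258.4 RPM with ethanol (log2 2.13, adjusted p = 0.00213). In LNCaP it had 267.4 and 236.7 RPM with DHT, against 154.2 and 183.5 RPM with ethanol (log2 0.62, adjusted p = 0.852). At these sites DHT values were above ethanol values at both times in both lines. The rise in BicR was not limited to DHT. Over the 6 treated BicR libraries, those of bicalutamide alone included, the lowest values were 12.3 RPM at 11679944 and 413.9 RPM at 223725753. Bicalutamide alone was not tested against ethanol.

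The member called in LNCaP, on the minus strand of chromosome 2 at 193059641, was low in BicR. Its call was lost without any one of the 4 LNCaP libraries of DHT or ethanol, and with a filter at 10 RPM. With DHT it had 9.15 and 12.4 RPM in BicR, against 4.42 and 4.02 RPM with ethanol (log2 1.34, adjusted p = 0.0252). In LNCaP it had 39.9 and 34.4 RPM with DHT, against 15.3 and 15.3 RPM with ethanol (log2 1.32, adjusted p = 0.0483). The site lay 1.67 log2 units below the chromosome shift. Among sites that fell, the pair at 107509896 and 107510017 on chromosome 9 had 0.87 and 2.36 RPM, and 103.8 and 54.1 RPM, with DHT in BicR, against 7.54 and 13.4 RPM, and 150.6 and 257.9 RPM, with ethanol. In LNCaP the first had 6.73 and 6.19 RPM with DHT, against 6.67 and 9.73 RPM with ethanol (log2 −0.29). The second had 227.5 and 160.8 RPM there with DHT, against 248.4 and 302.1 RPM with ethanol (log2 −0.46). Neither was called in LNCaP.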

How the data were processed

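Per the labels' protocols, total RNA was cap-trapped and the cDNA read on a HeliScope sequencer, and per the submitters' processing notes the build was hg19. The aligner and the cluster caller are not given in the sources used here. The authors deposited, per the file headers, a raw tag count and an RPM value per site and library, and every site reaches at least 10.0 RPM in some library. A second deposited table, of LNCaP libraries alone, was not used here.

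Ratios are of mean deposited RPM, with 0.5 RPM added, and are medians per chromosome, arm and 10 Mb window. Arms were split at 93 Mb on chromosome 2 and 49 Mb on chromosome 9, inside stretches with no site. Counts were tested with edgeR 4.0.16 in R 4.3.3: filterByExpr with a count minimum of 10, TMM, quasi-likelihood F test, Benjamini-Hochberg adjustment over all sites, threshold 0.05. The line test used the 12 treated libraries with condition as a block. For departures the BicR offset was raised by the chromosome's median ratio from the other 6 libraries. DHT against ethanol used 16 libraries, with a term for time in each line. Standard errors are the fitted log2 difference over the square root of F. DESeq2 1.42.0 was an alternative, and the fits were tested on simulated data.

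Named sites are, per chromosome, the 4 farthest above and below the shift (adjusted p under 0.05, mean of at least 10 RPM, one direction in all 6 treated conditions and in the untreated and ethanol mean), the 3 of highest level, the extreme windows and the runs. Other sites given for the low window, and those of the DHT section, were chosen after their values were seen. The members and lists were chosen with earlier results of these data known.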

Additional observations from a re-analysis of the deposited data

Results flagged for a closer look

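Within groups of 6 treated libraries, 56 groups of values were searched for a single library far from the rest by Dixon's criterion, and 6 were found, where chance gives about 1 in 20. The 6 h library of BicR under DHT with bicalutamide accounted for 5. Its relative level was −0.07453 on arm 2q, where the 6 BicR libraries had a median of 0.1621, and −0.07018 on arm 9p, where the median was 0.1462. At the minus-strand site 188461618 of chromosome 2 it had 25.66 RPM beside a median of 7.463 RPM, and at the plus-strand site 181848761 it had 9.824 RPM beside 3.543 RPM. At the plus-strand site 130911731 of chromosome 9 it had 501.2 RPM beside 88.25 RPM. The BicR library of DHT at 6 h had 37.03 RPM at the minus-strand site 208634629 of chromosome 2, where the median was 16.82 RPM. The cause of these values was not tested.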

How the results depend on the processing

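The medians of both chromosomes and of their 4 arms, the shares of windows above the median of all sites and the relative levels stayed on their side and within the spread of the main values under every alternative tried for them. These were other pseudocounts, a filter at 10 RPM, TMM-scaled counts, summed RPM, joined sites, other window sizes, leaving out a condition, and, chosen after seeing the data, leaving out the window at 180 to 190 Mb or, for the relative levels, the 6 libraries that chose the chromosomes. The counts of the line test stayed within 1.5 times. With departures of up to 0.5 log2 units as the null (glmTreat), 19 sites lay above and 28 below on chromosome 2. On chromosome 9, 11 lay above and 14 below, since that test asks for a larger departure. Leaving out each condition in turn gave 76 to 139 sites above and 53 to 94 below on chromosome 9. For DHT in BicR, DESeq2 called 7 lower sites on chromosome 2, and leaving out each library gave 1 to 8 lower there, and 2 to 4 higher and 1 to 5 lower on chromosome 9. For DHT in LNCaP, DESeq2 called 3 higher members, the filter at 10 RPM left 0, and leaving out any of the libraries gave 0; the cause was not tested. No paired analysis was possible because the labels give these libraries no replicate numbers to pair by. The line test pairs BicR and LNCaP by condition instead, and without that term it called 320 sites higher and 49 lower on chromosome 2, and 247 higher and 25 lower on chromosome 9. Depth limits sites of few tags: 3 tags equal 0.326 to 0.601 RPM in these libraries, counting error only.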
